A study of Mus musculus with 14 samples.

Results

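Chemokines and chemokine receptors were followed in the tumour-free liver of 14-month-old female mice. The set holds 38 genes, 27 ligands and 11 receptors, listed by name. Each gene was read from its probe of highest mean among the probes that name no other gene, and all 38 were measured, among 19938 genes tested. The liver came from mice of 3 genotypes. Mdr2-KO mice (5 arrays) lacked Mdr2, the older name of Abcb4, which moves phosphatidylcholine into bile and whose loss injures the bile ducts and is used in mice to study liver cancer that follows inflammation. Mdr2-KO/IL6-KO mice (6 arrays) lacked Mdr2 and also the cytokine interleukin 6. Wild-type mice (3 arrays) were C57BL/6. The strain of the knockouts was not given in the sources used here, so strain and genotype cannot be told apart. Whole liver RNA was hybridised to Affymetrix mouse gene arrays, and the values are log2 signals, 1 per probe and array.

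Chemokines are small secreted or membrane-bound proteins that guide white blood cells along a gradient, and they act through G protein-coupled receptors on the cells they attract. The CC and CXC ligands differ in the spacing of their first cysteines, and several ligands share a receptor. In liver, hepatocytes, bile duct cells, sinusoidal endothelium, stellate cells and macrophages all make chemokines, and the CCL2 to CCR2 axis is known for bringing monocytes into injured tissue, while the CXCR3 ligands are known for attracting activated T cells. In whole tissue, fewer cells of a type and less RNA per cell cannot be told apart.

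Arrays are numbered within each group. Array medians lay between 6.15 and 6.24, and precision is limited by how few arrays there are. The labels do not say whether arrays come from separate mice, and the p-values reflect only how these arrays spread, which may be technical. Abcb4 averaged 9.01 ± 0.19 in Mdr2-KO, 9.05 ± 0.20 in Mdr2-KO/IL6-KO and 10.36 ± 0.03 in wild type (SD). Il6 was under the background in every group, at 3.07 ± 0.15, 3.48 ± 0.31 and 3.22 ± 0.10 in the same order, so its loss could not be read here. The background of the array was taken as 5.49, below which the means of 95% of 1015 olfactory receptor genes fell, and 29.2% of all genes tested had a mean under it. Hepatocyte markers averaged 12.49 to 12.58 in Mdr2-KO arrays, 12.47 to 12.63 in Mdr2-KO/IL6-KO arrays and 12.48 to 12.53 in wild-type arrays. Of the 38 genes, 29 had a mean at or above the background. The 9 under it were the ligands Ccl8, Ccl12, Cxcl2 and Cxcl5 and the receptors Ccr1, Ccr3, Ccr6, Ccr9 and Cxcr5.

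Promoter windows are printed for 4 ligands that moved against wild type, 3 with a searched motif and Cxcl9 without one, as the DNA beside which the values below can be read. Each is a window of 250 bases from RefSeq on GRCm38.p6, 5′ to 3′ on the gene's own strand, with motif matches in capitals. Those of Cxcl10 and Cxcl9 end at the base before the annotated span of the gene. Those of Cxcl14 and Ccl17 lie inside the annotated span of the gene (chr13:56288643-56296811 and chr8:94809380-94812038). The motifs, searched on both strands, were an ISRE-like run (TTTC, any 2 bases, TTTC), an NF-kB-like run (GGGA, any 2 bases, TTCC), an AP-1-like run (TGANTCA) and a GAS-like run (TTCNNNGAA). They stood in 2.98%, 1.21%, 6.75% and 7.02% of all 32851 promoter windows. A window was held for 27 of the 38 genes, and 3 of 14 genes that moved in any comparison and had a window carried a motif. The windows of Cxcl10 (chr5:92348890-92349139, minus strand), Cxcl9 (chr5:92328080-92328329, minus), Cxcl14 (chr13:56296552-56296801, minus) and Ccl17 (chr8:94810203-94810452, plus) read as follows.
Cxcl10: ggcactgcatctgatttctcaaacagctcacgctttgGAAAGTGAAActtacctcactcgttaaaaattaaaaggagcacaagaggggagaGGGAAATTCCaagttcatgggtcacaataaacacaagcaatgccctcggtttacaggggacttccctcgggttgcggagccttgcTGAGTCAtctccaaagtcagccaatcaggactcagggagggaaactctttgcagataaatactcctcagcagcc
Cxcl9: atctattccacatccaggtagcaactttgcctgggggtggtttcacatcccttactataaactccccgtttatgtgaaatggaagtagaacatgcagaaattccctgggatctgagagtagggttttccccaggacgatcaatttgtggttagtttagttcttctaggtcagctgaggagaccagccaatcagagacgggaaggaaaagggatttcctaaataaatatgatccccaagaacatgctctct
Cxcl14: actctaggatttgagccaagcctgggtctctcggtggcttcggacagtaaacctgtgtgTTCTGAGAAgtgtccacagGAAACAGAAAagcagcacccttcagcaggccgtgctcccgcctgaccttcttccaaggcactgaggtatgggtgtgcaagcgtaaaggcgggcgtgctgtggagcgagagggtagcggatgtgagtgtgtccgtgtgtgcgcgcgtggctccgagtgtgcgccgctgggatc
Ccl17: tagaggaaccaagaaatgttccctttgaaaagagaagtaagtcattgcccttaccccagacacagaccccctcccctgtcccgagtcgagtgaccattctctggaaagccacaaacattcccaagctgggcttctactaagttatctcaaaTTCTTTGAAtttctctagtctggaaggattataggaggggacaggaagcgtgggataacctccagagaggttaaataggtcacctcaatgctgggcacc
Positions are counted back from the end of the window. Cxcl10 carried the ISRE-like match GAAAGTGAAA at -213 to -204, the NF-kB-like match GGGAAATTCC at -159 to -150 and the AP-1-like match TGAGTCA at -74 to -68. Cxcl14 carried the GAS-like TTCTGAGAA at -191 to -183 and the ISRE-like GAAACAGAAA at -172 to -163. Ccl17 carried the GAS-like TTCTTTGAA at -99 to -91. The matches of Cxcl14 and Ccl17 thus lay inside the annotated spans of these genes. Cxcl9 held none of these letters in its window. A match is a run of letters and not a measured site, and the absence of one says only that these letters are not in this window. Of the genes that moved in no comparison, Cxcl1 and Cxcl2 held NF-kB-like letters, Ccr3 NF-kB-like and AP-1-like letters, Ccl19 ISRE-like, Ccl9 AP-1-like and Ccr6 GAS-like letters.

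Against wild type, 11 of the 38 genes (28.9%) passed the test in Mdr2-KO, 6 higher and 5 lower, where 21.0% of all genes tested passed, 8.89% higher and 12.1% lower. The test was limma with Benjamini-Hochberg adjustment over all genes at an adjusted p under 0.05, and a gene is said to have risen or fallen only where it passed. All 5 that fell were ligands, and of the 6 that rose 4 were receptors. In Mdr2-KO/IL6-KO against wild type 11 of 38 passed, 8 higher and 3 lower, where 12.3% of all genes passed, 6.96% higher and 5.33% lower. Between Mdr2-KO/IL6-KO and Mdr2-KO 3 of 38 passed (7.89%), all of them ligands and all higher, where 8.76% of all genes passed, 5.04% higher and 3.72% lower. The median log2 fold change of the 38 genes was -0.08, 0.12 and 0.13 in these comparisons in turn, and -0.07, -0.02 and 0.06 over all genes. Both comparisons with wild type use the same 3 wild-type arrays.

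Arrays without overlap between the groups were seen for 6 higher and 6 lower genes in Mdr2-KO against wild type, where 23.5% of all genes did so, 10.3% higher and 13.2% lower. The counts were 11 higher and 2 lower in Mdr2-KO/IL6-KO against wild type, where 15.1% of all genes did so, 8.57% higher and 6.56% lower. Between Mdr2-KO/IL6-KO and Mdr2-KO the count was 0, where 7.34% of all genes did so, 4.4% higher and 2.94% lower. In all, 18 of the 38 genes moved in at least 1 comparison, 14 ligands and 4 receptors. The share of all genes that moved in at least 1 comparison was not counted. It is no lower than the 21.0% that passed in Mdr2-KO against wild type, so the 18 is not read as a trait of this set. Wild-type array 1 decided the count in Mdr2-KO/IL6-KO against wild type, which was 5 without it, where the share of all genes that passed was 8.5%. The count between the knockouts was 1 without any of Mdr2-KO arrays 1, 2 and 3 or Mdr2-KO/IL6-KO array 2, and 5 without Mdr2-KO array 5 or Mdr2-KO/IL6-KO array 3, where 9.42% and 7.88% of all genes passed. The share of all genes that passed in Mdr2-KO against wild type was 10.7% without wild-type array 3. Between the knockouts that share was 3.78%, 4.67% and 5.01% without Mdr2-KO arrays 1, 3 and 4, and 5.29% and 5.24% without Mdr2-KO/IL6-KO arrays 4 and 5. It was 9.92% without Mdr2-KO array 2 and 6.27% without Mdr2-KO/IL6-KO array 2.

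**Figure D1:**
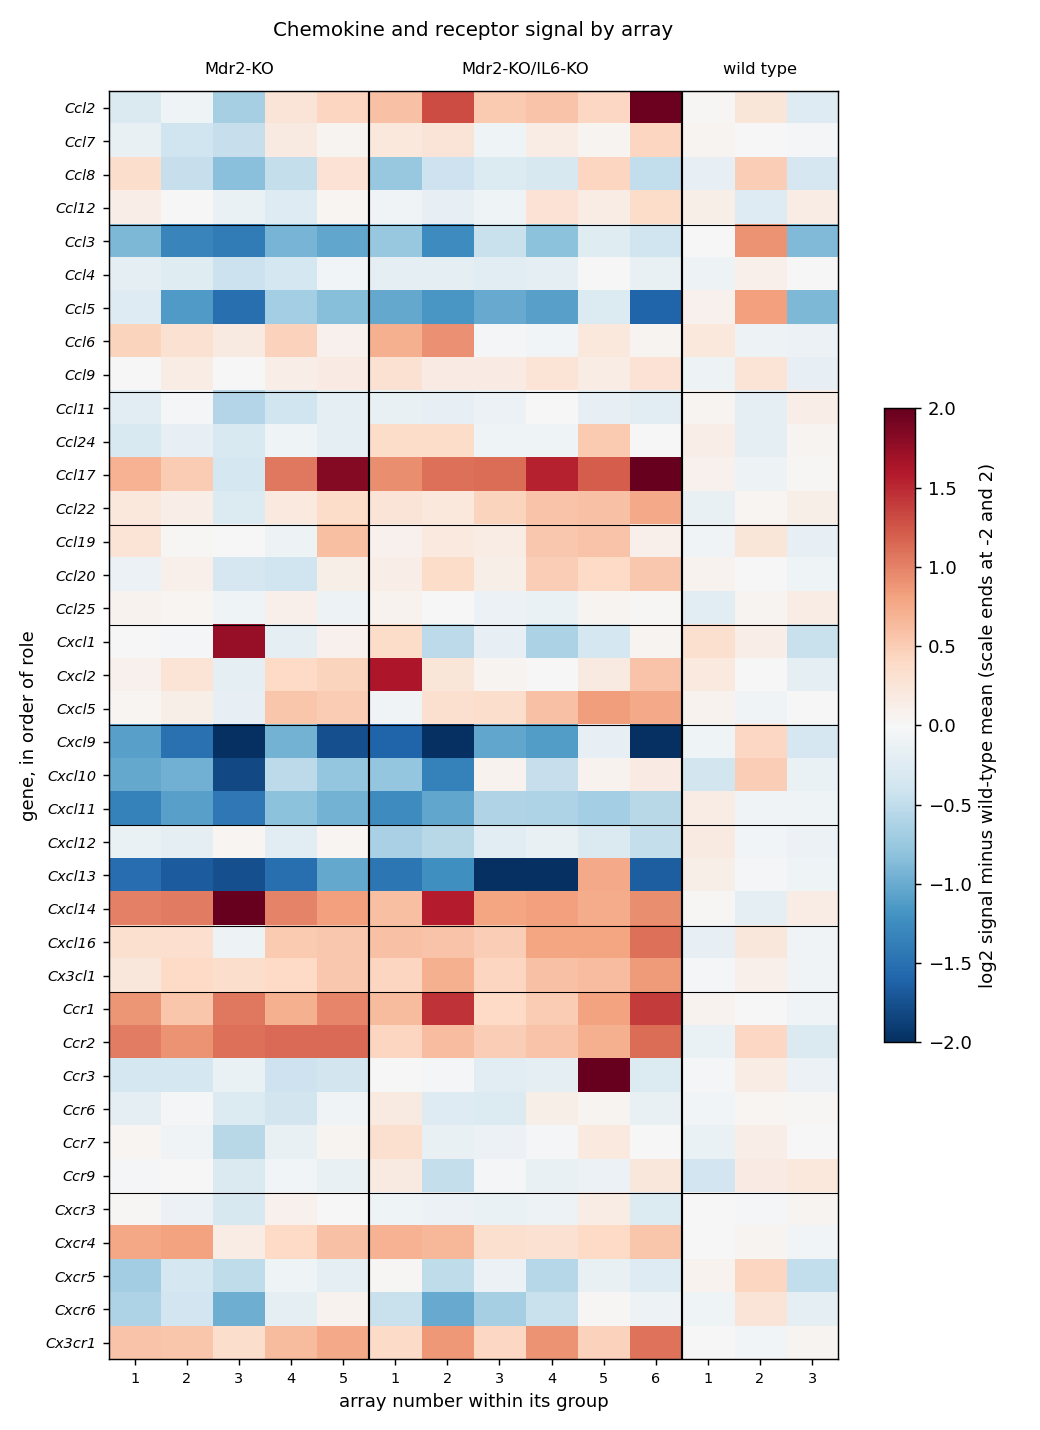
Log2 signal of the 38 genes (down the page, in order of role, with lines between roles) in each of the 14 arrays (across), as the difference from the wild-type mean of the same gene. Red is higher and blue lower, and the colour scale ends at -2 and 2. Cxcl9, Cxcl10, Cxcl11 and Cxcl13 are blue in all 5 Mdr2-KO arrays, and Ccr2, Cx3cr1 and Cxcl14 are red in all 11 knockout arrays.

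Cxcl9, Cxcl10 and Cxcl11 belong to the interferon-induced ligands of CXCR3, a receptor of activated T and NK cells. All 3 of 3 passed lower in Mdr2-KO against wild type, with a median log2 fold change of -1.13, and 2 of 3 fell in Mdr2-KO/IL6-KO, with a median of -0.79. Cxcl9 read 9.71, 9.30, 8.66, 9.85 and 9.05 in Mdr2-KO, 8.41 at the lowest, 9.44 at the median and 10.63 at the highest in Mdr2-KO/IL6-KO, and 10.72, 11.21 and 10.47 in wild type. Every Mdr2-KO array was below every wild-type array, and Mdr2-KO/IL6-KO array 5 alone of its group reached into the wild-type range. Cxcl9 fell by 1.49 on the log2 scale in Mdr2-KO (SE 0.40, 2.80-fold, adjusted p = 0.0175) and by 1.41 in Mdr2-KO/IL6-KO liver (SE 0.39, 2.66-fold, adjusted p = 0.0262). In Mdr2-KO the call was lost on leaving out wild-type array 2 (adjusted p = 0.0574). In Mdr2-KO/IL6-KO it was lost on leaving out wild-type array 1 (0.0695) or 2 (0.108) and under trend and robust moderation (0.0604).

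Cxcl10 read 7.68, 7.73, 6.89, 8.18 and 7.92 in Mdr2-KO, 7.34 at the lowest, 8.50 at the median and 8.87 at the highest in Mdr2-KO/IL6-KO, and 8.33, 9.19 and 8.57 in wild type. The Mdr2-KO arrays lay below all wild-type arrays, while those of Mdr2-KO/IL6-KO overlapped both other groups. It fell by 1.02 on the log2 scale in Mdr2-KO (SE 0.33, 2.03-fold, adjusted p = 0.041) and differed from wild type by -0.38 in Mdr2-KO/IL6-KO liver (SE 0.32, adjusted p = 0.527). The difference between Mdr2-KO/IL6-KO and Mdr2-KO was 0.64 (95% interval 0.05 to 1.23, adjusted p = 0.141), so the knockouts were not shown to differ. The Mdr2-KO call of Cxcl10 was lost on leaving out Mdr2-KO array 1 (adjusted p = 0.0675), 2 (0.053) or 3 (0.0775), Mdr2-KO/IL6-KO array 4 (0.0512), or wild-type array 2 (0.138) or 3 (0.094). It was also lost under trend and robust moderation (adjusted p = 0.0727) and with array weights (0.0704).

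Cxcl11, the third of these ligands, read 6.99, 7.24, 6.91, 7.51 and 7.38 in Mdr2-KO, 7.07 at the lowest, 7.68 at the median and 7.78 at the highest in Mdr2-KO/IL6-KO, and 8.48, 8.26 and 8.24 in wild type. No array of either knockout reached the wild-type range. It fell by 1.13 on the log2 scale in Mdr2-KO (SE 0.16, 2.18-fold, adjusted p = 0.000388) and by 0.79 in Mdr2-KO/IL6-KO liver (SE 0.16, 1.73-fold, adjusted p = 0.00418), and both calls stayed under every alternative setting tried. RefSeq annotates Cxcl11 as a transcribed pseudogene in the C57BL/6J reference, so its signal is that of a transcript and not of a known protein in that strain. On chromosome 5 the 3 genes lie together in the order Cxcl9, Cxcl10, Cxcl11, with 1 other protein-coding gene, Art3, between Cxcl9 and Cxcl10. The receptor Cxcr3 differed from wild type by -0.06 in Mdr2-KO (95% interval -0.27 to 0.14, adjusted p = 0.646) and by -0.09 in Mdr2-KO/IL6-KO (95% interval -0.29 to 0.10, adjusted p = 0.598).

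T cell markers were lower beside these ligands. Of 6 measured, 3 fell in each knockout against wild type, and their summed log2 signal lay at 33.5 to 37.0 in Mdr2-KO, 34.3 to 37.5 in Mdr2-KO/IL6-KO and 37.5 to 41.7 in wild type. Of the 6 NK cell markers 2 fell in each knockout (sums of 30.2 to 32.8, 30.7 to 31.9 and 32.3 to 33.0 in the same order). Ncr1, Klrb1c and Eomes had means under the background in every group, Gzma in both knockouts, and Klrd1 in Mdr2-KO/IL6-KO and wild type. Of the T cell markers, Cd3d was under it in every group. Wild-type array 2, the highest array for Cxcl9 and Cxcl10, also had the highest T cell level, a mean of 6.96 over the 6 markers against 6.25 and 6.26 in the other wild-type arrays. Their part in the result was not tested.

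Cxcl13, which attracts B cells through CXCR5, fell in Mdr2-KO. It read 8.86, 8.72, 8.63, 8.88 and 9.36 in Mdr2-KO, 7.88 at the lowest, 8.84 at the median and 11.14 at the highest in Mdr2-KO/IL6-KO, and 10.50, 10.36 and 10.31 in wild type. Each of the 5 Mdr2-KO arrays was below the wild-type arrays, and in Mdr2-KO/IL6-KO array 5 alone stood above them. The fall was 1.50 on the log2 scale in Mdr2-KO (log2 fold change -1.50, SE 0.48, 2.83-fold, adjusted p = 0.0389). In Mdr2-KO/IL6-KO the difference from wild type was -1.35 (SE 0.47, adjusted p = 0.0739). The Mdr2-KO call was lost on leaving out Mdr2-KO array 1 (adjusted p = 0.0658), 2 (0.0578), 3 (0.0653) or 4 (0.0653), or wild-type array 1 (0.0993), 2 (0.068) or 3 (0.103). It was lost too under trend and robust moderation (adjusted p = 0.0761) and with array weights (0.0591). Over all settings tried, the adjusted p by limma of this call ran from 0.00018 to 0.103. The main fit shares 1 estimate of the spread over the 3 groups. The SD of Cxcl13 was 0.28 in Mdr2-KO, 1.13 in Mdr2-KO/IL6-KO and 0.10 in wild type. Its receptor Cxcr5 was under the background in every group. Of 5 B cell markers 2 fell in each knockout. The sums of the 5 were 27.8 to 30.3 in Mdr2-KO, 28.6 to 32.3 in Mdr2-KO/IL6-KO and 30.5 to 34.8 in wild type. Ms4a1 had a mean under the background in both knockouts, and Cd79a in Mdr2-KO. The part of these markers in the result was not tested.

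Ccl3, a ligand of CCR1 made by activated macrophages and lymphocytes, fell in Mdr2-KO. Its arrays read 7.79, 7.37, 7.30, 7.76 and 7.66 in Mdr2-KO, 7.44 at the lowest, 8.09 at the median and 8.46 at the highest in Mdr2-KO/IL6-KO, and 8.69, 9.59 and 7.82 in wild type. The Mdr2-KO arrays lay just below the lowest wild-type array, and the wild-type arrays themselves spread widely. Ccl3 fell by 1.12 on the log2 scale in Mdr2-KO (SE 0.29, 2.17-fold, adjusted p = 0.0157). Without wild-type array 2, its highest, the difference was -0.68 and no longer passed (adjusted p = 0.067). In Mdr2-KO/IL6-KO the difference from wild type was -0.65 (SE 0.29, adjusted p = 0.16).

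Ccl5, which T and NK cells make in large amounts, was lower in most knockout arrays without passing. It read 9.22, 8.35, 7.97, 8.79 and 8.62 in Mdr2-KO, 7.87 to 9.20 in Mdr2-KO/IL6-KO, and 9.56, 10.29 and 8.57 in wild type. The differences from wild type were -0.89 in Mdr2-KO (adjusted p = 0.0732) and -1.03 in Mdr2-KO/IL6-KO (adjusted p = 0.0542). Ccl4, made by activated macrophages and lymphocytes, differed by -0.25 in Mdr2-KO (adjusted p = 0.0516). Wild-type array 2 was the highest of the 3 wild-type arrays for Ccl3 and for Ccl5, as it was for the T cell markers. Ccl6 and Ccl9, CCR1 ligands of mouse macrophages, were well above the background and did not pass in any comparison. Ccl6 averaged 9.22 ± 0.17 in Mdr2-KO, 9.22 ± 0.41 in Mdr2-KO/IL6-KO and 8.92 ± 0.19 in wild type, and Ccl9 10.18 ± 0.08, 10.32 ± 0.07 and 10.09 ± 0.24.

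**Figure D2:**
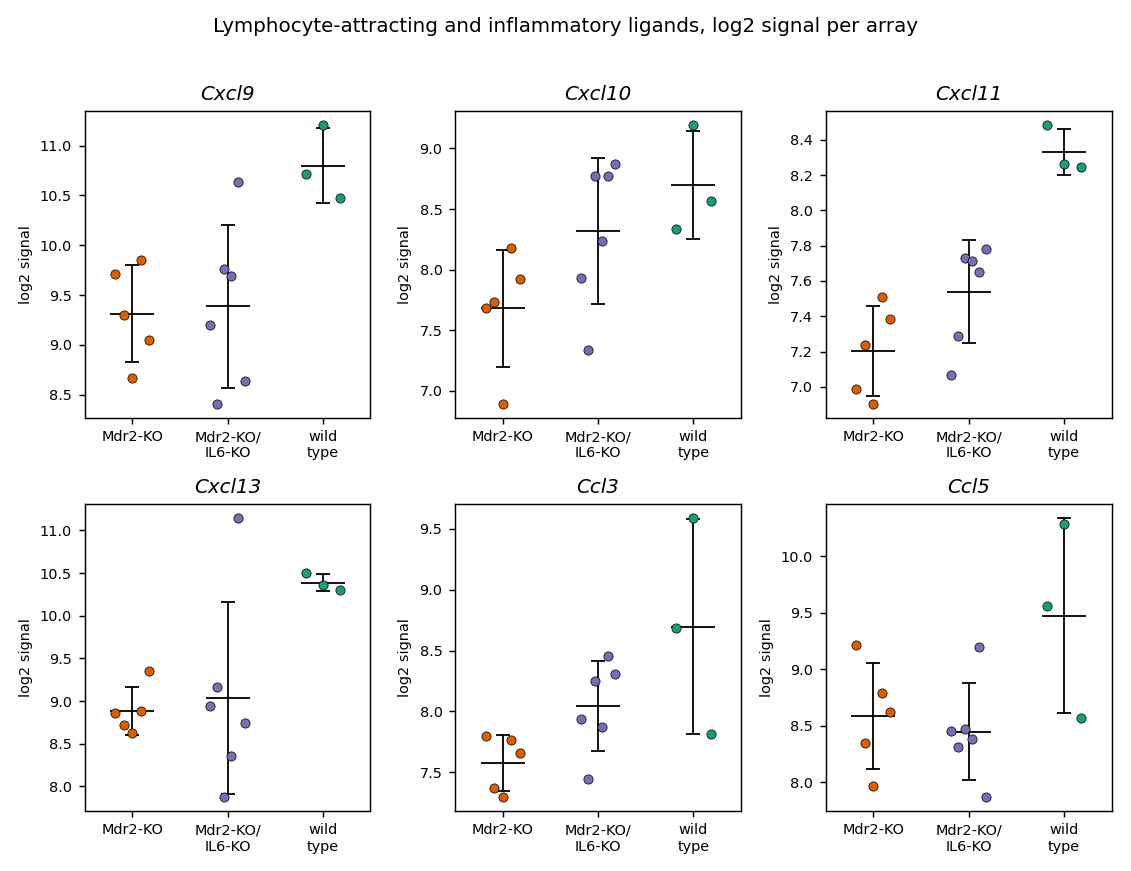
Log2 signal (vertical axis, a separate scale per gene) of Cxcl9, Cxcl10, Cxcl11, Cxcl13, Ccl3 and Ccl5 in the Mdr2-KO, the Mdr2-KO/IL6-KO and the wild-type arrays. Dots are arrays and bars the mean ± SD. For Cxcl11 the 3 wild-type arrays, at 8.48, 8.26 and 8.24, lie above every knockout array, the highest of which reads 7.78.

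Cxcl14, a ligand made by epithelia whose signalling receptor is not settled, rose in Mdr2-KO. It read 7.79, 7.81, 9.62, 7.77 and 7.60 in Mdr2-KO, 7.38 at the lowest, 7.58 at the median and 8.34 at the highest in Mdr2-KO/IL6-KO, and 6.80, 6.59 and 6.93 in wild type. Every knockout array was above every wild-type array, and Mdr2-KO array 3 stood far above the rest of its group. Cxcl14 rose by 1.34 in Mdr2-KO (SE 0.35, 2.53-fold, adjusted p = 0.015). Without Mdr2-KO array 3 the rise was 0.97 (adjusted p = 0.00198), and on leaving out both that array and array 2 of wild type it was 0.87 (adjusted p = 0.00956). In Mdr2-KO/IL6-KO the difference was 0.91 (SE 0.34, adjusted p = 0.097), with no overlap of arrays. The fit shares 1 estimate of the spread over the 3 groups. The SD of Cxcl14 was 0.84 in Mdr2-KO, 0.34 in Mdr2-KO/IL6-KO and 0.17 in wild type. Neutrophil markers were highest in the same Mdr2-KO array 3, at a mean of 8.90 over 7 markers, and next highest at 7.87 in Mdr2-KO/IL6-KO array 2, against 5.68 to 6.06 in the other knockout arrays and 5.83 to 6.00 in wild type. None of the 7 neutrophil markers passed in either comparison with wild type, Ly6g was under the background in every group, and their part in the result was not tested.

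Cxcl12, the CXCR4 ligand that stromal and endothelial cells make constantly, fell slightly in Mdr2-KO/IL6-KO. It read 9.69, 9.65, 9.86, 9.62 and 9.86 in Mdr2-KO, 9.18 at the lowest, 9.44 at the median and 9.67 at the highest in Mdr2-KO/IL6-KO, and 10.01, 9.77 and 9.70 in wild type. The Mdr2-KO/IL6-KO arrays lay below all wild-type arrays, and the Mdr2-KO arrays overlapped both. It fell by 0.39 on the log2 scale in Mdr2-KO/IL6-KO against wild type (SE 0.11, 1.31-fold, adjusted p = 0.0282) and differed by -0.09 in Mdr2-KO (adjusted p = 0.573). Between Mdr2-KO/IL6-KO and Mdr2-KO the difference was -0.30 (95% interval -0.50 to -0.10, adjusted p = 0.0561). The call was lost on leaving out Mdr2-KO/IL6-KO array 2 (adjusted p = 0.0544) or wild-type array 1 (0.151) or 2 (0.0547), and in a fit of only the 2 groups compared (0.0566).

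The membrane-bound ligands are shed or displayed on the cell that makes them, and both of them rose in Mdr2-KO/IL6-KO. Cx3cl1, the only ligand of CX3CR1, read 6.71, 6.88, 6.83, 6.87 and 7.02 in Mdr2-KO, 6.91 at the lowest, 7.08 at the median and 7.33 at the highest in Mdr2-KO/IL6-KO, and 6.45, 6.58 and 6.41 in wild type. No knockout array overlapped wild type. It rose by 0.38 in Mdr2-KO (SE 0.09, 1.30-fold, adjusted p = 0.0113), a call lost on leaving out wild-type array 3 (adjusted p = 0.0555). The rise in Mdr2-KO/IL6-KO was 0.61 (SE 0.09, 1.52-fold, adjusted p = 0.000589), and it passed under every alternative tried. Cxcl16, the ligand of CXCR6, read 8.23, 8.24, 7.81, 8.44 and 8.45 in Mdr2-KO, 8.40 at the lowest, 8.60 at the median and 9.01 at the highest in Mdr2-KO/IL6-KO, and 7.74, 8.14 and 7.84 in wild type. The Mdr2-KO/IL6-KO arrays stood above all wild-type arrays, and the Mdr2-KO arrays overlapped both groups. Cxcl16 rose by 0.72 in Mdr2-KO/IL6-KO liver (SE 0.15, 1.65-fold, adjusted p = 0.00438), passing under every alternative, and differed by 0.32 in Mdr2-KO (adjusted p = 0.133). Cxcr6 differed from wild type by -0.42 in Mdr2-KO (adjusted p = 0.193) and by -0.44 in Mdr2-KO/IL6-KO (adjusted p = 0.237).

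Ccl17 and Ccl22, which attract T cells that carry CCR4, rose in Mdr2-KO/IL6-KO. Ccl17 read 6.45, 6.26, 5.41, 6.80 and 7.59 in Mdr2-KO, 6.69 at the lowest, 6.92 at the median and 8.11 at the highest in Mdr2-KO/IL6-KO, and 5.84, 5.65 and 5.77 in wild type. The Mdr2-KO arrays ran from under the wild-type range to far above it, whereas all Mdr2-KO/IL6-KO arrays were above wild type. Ccl17 rose by 1.38 in Mdr2-KO/IL6-KO liver (SE 0.36, 2.60-fold, adjusted p = 0.0197), a call lost on leaving out wild-type array 1 (adjusted p = 0.0555), 2 (0.0654) or 3 (0.0639). In Mdr2-KO its difference from wild type was 0.75 (SE 0.37, adjusted p = 0.151). Ccl22 lay near the background, at 5.50, 5.42, 5.02, 5.47 and 5.66 in Mdr2-KO, 5.50 at the lowest, 5.79 at the median and 6.05 at the highest in Mdr2-KO/IL6-KO, and 5.13, 5.32 and 5.41 in wild type, where all 3 arrays were under it. Its rise in Mdr2-KO/IL6-KO was 0.47 (SE 0.13, adjusted p = 0.0295), and since the wild-type mean was under the background its size is not exact. Ccl22 lost its call on leaving out Mdr2-KO/IL6-KO array 4 (adjusted p = 0.0546) or 5 (0.0504), or wild-type array 1 (0.136) or 2 (0.0667). Ccl22, Cx3cl1 and Ccl17 are neighbours on chromosome 8 with no other protein-coding gene between them, and all 3 rose in Mdr2-KO/IL6-KO.

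Of the monocyte attractants, Ccl2 was the 1 of 4 that moved, and it did so between the knockouts. Ccl2 binds CCR2 and is the main signal that draws monocytes into tissue. It read 7.97 at the median in Mdr2-KO/IL6-KO, with a lowest of 7.80 and a highest of 9.36, against 7.11, 7.31, 6.73, 7.65 and 7.83 in Mdr2-KO, and 7.42, 7.63 and 7.13 in wild type. Mdr2-KO/IL6-KO array 5, at 7.80, lay just under Mdr2-KO array 5, at 7.83, and the other arrays of the 2 groups did not cross. Ccl2 rose by 0.96 in Mdr2-KO/IL6-KO against Mdr2-KO (SE 0.26, 1.94-fold, adjusted p = 0.0344). That call was lost on leaving out Mdr2-KO array 1 (adjusted p = 0.0851), 2 (0.05003) or 3 (0.0864), or Mdr2-KO/IL6-KO array 2 (0.0658), and under trend and robust moderation (0.0603). Against wild type the difference was 0.89 in Mdr2-KO/IL6-KO liver (SE 0.30, adjusted p = 0.0698) and -0.07 in Mdr2-KO (SE 0.31, adjusted p = 0.888). Ccl7, also a CCR2 ligand, differed by 0.33 between Mdr2-KO/IL6-KO and Mdr2-KO (adjusted p = 0.0763), and Ccl8 and Ccl12 were under the background.

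Ccl20, which attracts cells with CCR6 and is made by epithelia, rose between the knockouts too. It read 6.03 at the lowest, 6.29 at the median and 6.45 at the highest in Mdr2-KO/IL6-KO, against 5.78, 6.01, 5.58, 5.50 and 6.03 in Mdr2-KO and 5.98, 5.92 and 5.82 in wild type. The knockout groups touched at 1 point, the lowest Mdr2-KO/IL6-KO array and the highest Mdr2-KO array. The rise was 0.47 against Mdr2-KO (SE 0.11, 1.38-fold, adjusted p = 0.0152), and it passed whichever single array was left out. It no longer passed on leaving out both Mdr2-KO array 3 and array 2 of Mdr2-KO/IL6-KO (adjusted p = 0.0676). Against wild type the difference in Mdr2-KO/IL6-KO was 0.34 (adjusted p = 0.0849), with no overlap of arrays. Ccr6 was under the background.

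Ccl24, an eotaxin that acts on CCR3 of eosinophils, read 5.80 at the lowest, 6.08 at the median and 6.41 at the highest in Mdr2-KO/IL6-KO, against 5.59, 5.73, 5.59, 5.81 and 5.69 in Mdr2-KO and 6.03, 5.70 and 5.95 in wild type. The groups overlapped, and Mdr2-KO held the lowest arrays. It rose by 0.39 in Mdr2-KO/IL6-KO against Mdr2-KO (SE 0.11, 1.31-fold, adjusted p = 0.0411). The call was fragile, being lost on leaving out Mdr2-KO array 1 (adjusted p = 0.098), 2 (0.0506), 3 (0.0894), 4 (0.0576) or 5 (0.056), Mdr2-KO/IL6-KO array 1 (0.0739), 2 (0.0775) or 5 (0.0786), or with array weights (0.0521). The other eotaxin measured, Ccl11, differed from wild type by -0.29 in Mdr2-KO (adjusted p = 0.0622). Ccr3, the eotaxin receptor, was under the background in all arrays but Mdr2-KO/IL6-KO array 5, where it read 8.39. Of 4 eosinophil markers 1, Epx, was higher in Mdr2-KO/IL6-KO than in Mdr2-KO (0.28, adjusted p = 0.0492), and Epx and Il5ra were lower in Mdr2-KO than in wild type. Epx, Prg2 and Il5ra had means under the background in every group. The summed signal of the 4 was 19.8 to 20.6 in Mdr2-KO/IL6-KO, 19.3 to 20.0 in Mdr2-KO and 19.8 to 21.0 in wild type, and their part in the result was not tested.

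**Figure D3:**
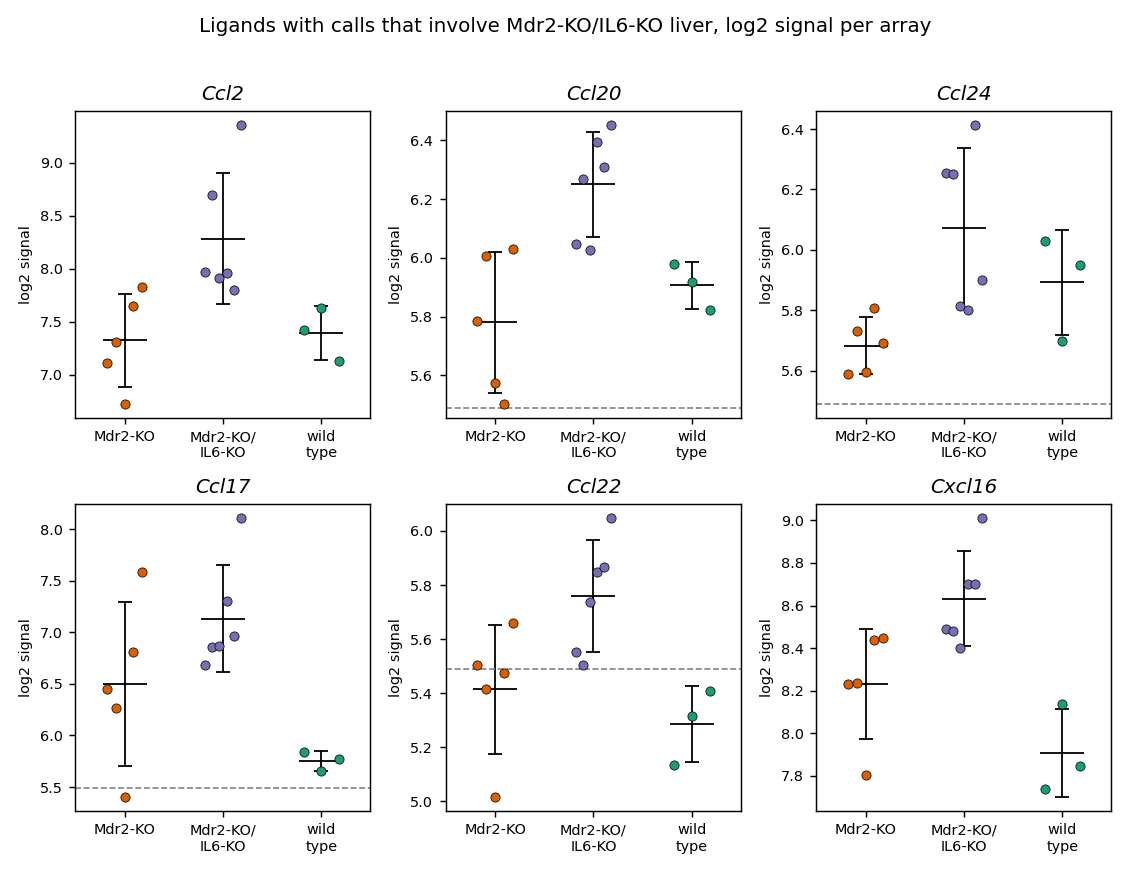
Log2 signal per array (separate vertical scales) of Ccl2, Ccl20, Ccl24, Ccl17, Ccl22 and Cxcl16 in the Mdr2-KO, the Mdr2-KO/IL6-KO and the wild-type arrays, with dots for arrays, bars for the mean ± SD and a dashed line at the background of 5.49 where it falls in the range. For Ccl17 and Cxcl16 all 6 Mdr2-KO/IL6-KO arrays stand above the wild-type arrays.

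The neutrophil attractants Cxcl1, Cxcl2 and Cxcl5, which act through CXCR2, passed in no comparison. Cxcl1 averaged 8.42 ± 0.80 in Mdr2-KO, 7.88 ± 0.37 in Mdr2-KO/IL6-KO and 8.09 ± 0.40 in wild type. Mdr2-KO array 3 read 9.84 for Cxcl1 while the other 4 Mdr2-KO arrays read 7.91 to 8.18, and the same array had the highest neutrophil markers. Ccl19, a CCR7 ligand that guides dendritic cells and naive T cells, averaged 7.75 ± 0.28 in Mdr2-KO, 7.86 ± 0.22 in Mdr2-KO/IL6-KO and 7.59 ± 0.21 in wild type. Ccr7 averaged 7.04 ± 0.25, 7.20 ± 0.19 and 7.17 ± 0.13 in the same order. Ccl25, the CCR9 ligand of thymus and gut, lay between 6.73 and 7.10 in all 14 arrays.

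Every receptor that passed was higher, though Ccr1 was under the background in every array. Of 11, the 4 that passed against wild type in Mdr2-KO (Ccr1, Ccr2, Cxcr4 and Cx3cr1) all rose, the same 4 rose in Mdr2-KO/IL6-KO, and none of the 11 passed between the knockouts by limma, where 1 had an unadjusted p under 0.05. Ccr2, the receptor by which inflammatory monocytes leave the bone marrow and enter tissue, read 7.08, 6.95, 7.15, 7.18 and 7.18 in Mdr2-KO, 6.47 at the lowest, 6.64 at the median and 7.16 at the highest in Mdr2-KO/IL6-KO, and 5.91, 6.46 and 5.76 in wild type. Mdr2-KO arrays were tightly grouped and all above wild type, and in Mdr2-KO/IL6-KO the lowest array lay only just above the highest wild-type array. Ccr2 rose by 1.06 in Mdr2-KO (SE 0.15, 2.09-fold, adjusted p = 0.000358), passing under every alternative tried. In Mdr2-KO/IL6-KO it rose by 0.65 (SE 0.15, 1.57-fold, adjusted p = 0.00906), a call lost on leaving out wild-type array 1 (adjusted p = 0.0519) or 3 (0.0666). Between Mdr2-KO/IL6-KO and Mdr2-KO the difference was -0.41 (95% interval -0.68 to -0.14, adjusted p = 0.0577), the opposite sign to that of its ligand Ccl2.

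Cx3cr1, the CX3CL1 receptor of monocytes, macrophages and NK cells, read 7.62, 7.60, 7.40, 7.68 and 7.81 in Mdr2-KO, 7.44 at the lowest, 7.72 at the median and 8.15 at the highest in Mdr2-KO/IL6-KO, and 7.05, 7.00 and 7.12 in wild type. All knockout arrays were above all wild-type arrays. It rose by 0.57 in Mdr2-KO (SE 0.15, 1.48-fold, adjusted p = 0.014) and by 0.69 in Mdr2-KO/IL6-KO liver (SE 0.14, 1.61-fold, adjusted p = 0.00483), and both calls passed under every alternative. Cxcr4, the receptor for CXCL12, read 6.93, 6.95, 6.30, 6.56 and 6.75 in Mdr2-KO, 6.46 at the lowest, 6.63 at the median and 6.85 at the highest in Mdr2-KO/IL6-KO, and 6.16, 6.21 and 6.10 in wild type. Again no knockout array overlapped wild type. Cxcr4 rose by 0.54 in Mdr2-KO (SE 0.13, 1.46-fold, adjusted p = 0.0112), lost on leaving out wild-type array 3 (adjusted p = 0.0507). In Mdr2-KO/IL6-KO it rose by 0.49 (SE 0.13, 1.40-fold, adjusted p = 0.0216), lost on leaving out wild-type array 1 (0.0662) or 3 (0.0822).

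Ccr1, a receptor of CCL3, CCL5, CCL6 and CCL9 on myeloid cells, was under the background in every array. Its values were 4.71, 4.38, 4.88, 4.53 and 4.80 in Mdr2-KO, 4.23 at the lowest, 4.54 at the median and 5.26 at the highest in Mdr2-KO/IL6-KO, and 3.89, 3.83 and 3.76 in wild type. All knockout arrays nevertheless stood above all wild-type arrays, by 0.84 in Mdr2-KO (adjusted p = 0.0118) and 0.86 in Mdr2-KO/IL6-KO (adjusted p = 0.0107), and since no group was above the background these sizes are not exact. The Mdr2-KO call was lost on leaving out wild-type array 3 (adjusted p = 0.0516). The receptors Ccr3, Ccr6, Ccr9 and Cxcr5 were also under the background, and Ccr7, Cxcr3 and Cxcr6 were above it without passing. For Ccr3 the highest Mdr2-KO array, at 4.904, lay below the lowest wild-type array, at 4.918, without passing.

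**Figure D4:**
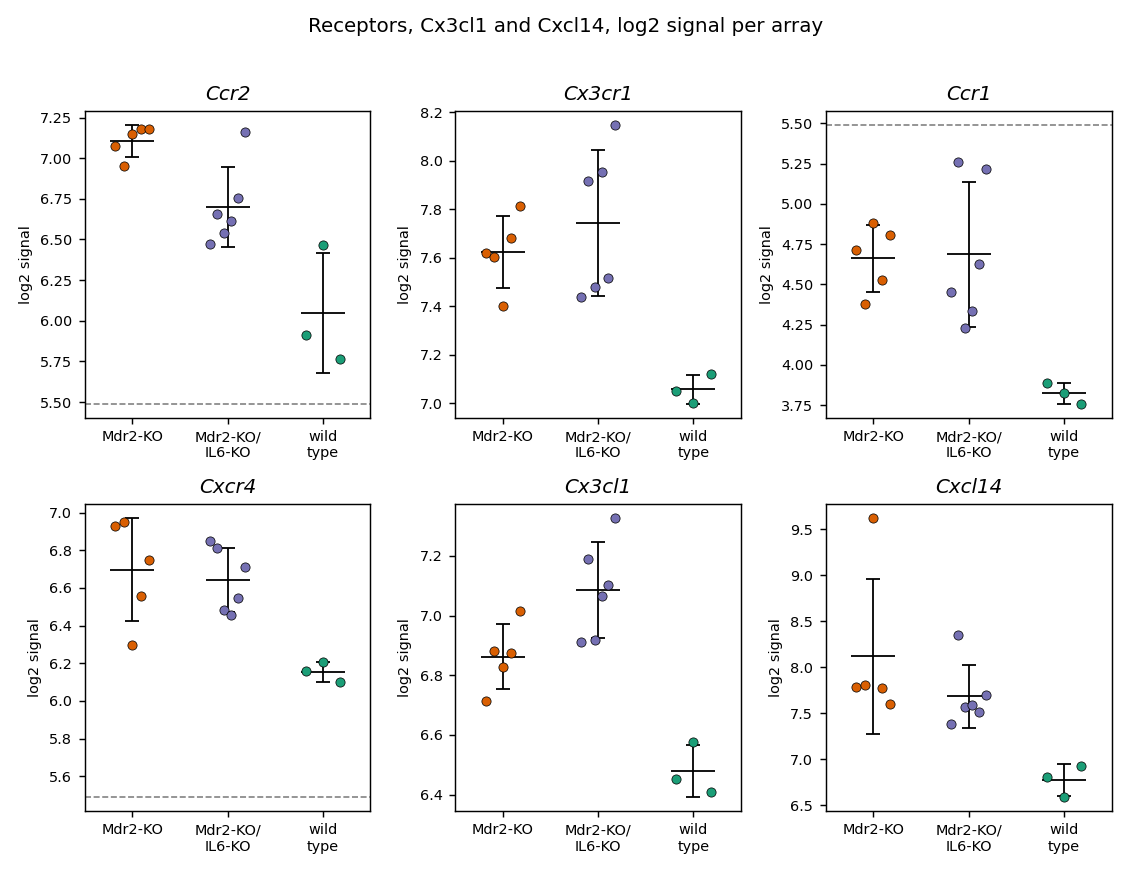
Log2 signal per array (separate vertical scales) of Ccr2, Cx3cr1, Ccr1, Cxcr4, Cx3cl1 and Cxcl14 in the Mdr2-KO, the Mdr2-KO/IL6-KO and the wild-type arrays, drawn as dots with the mean ± SD, the dashed line being the background of 5.49. In each panel all 11 knockout arrays lie above the 3 wild-type arrays, and for Ccr1 every array is under the background.

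Markers of recruited macrophages were higher beside the receptors. Against wild type, 4 of 8 measured rose in Mdr2-KO, as did 5 of 8 in Mdr2-KO/IL6-KO, none was under the background, and the summed signal was 67.4 to 69.4 in Mdr2-KO, 68.4 to 71.3 in Mdr2-KO/IL6-KO and 61.5 to 63.8 in wild type. Of 6 Kupffer cell markers 1 fell in each knockout, with sums of 50.2 to 53.6, 51.0 to 55.1 and 54.3 to 55.3 in the same order. Of 6 bile duct cell markers 3 rose against wild type in Mdr2-KO, while 4 did in Mdr2-KO/IL6-KO, with sums of 42.7 to 47.9 in Mdr2-KO, 43.1 to 48.5 in Mdr2-KO/IL6-KO and 37.4 to 40.9 in wild type. Stellate cell and fibroblast markers rose in 4 of 7 and fell in 1 of 7 in each knockout, with sums of 54.3 to 59.6, 54.8 to 60.2 and 52.5 to 54.1. None of 6 dendritic cell markers and none of 6 sinusoidal endothelium markers passed by limma in either comparison with wild type. The part of these cells in the results was not tested.

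The rest of the pathway was read from lists of genes around these 38. Of 9 further chemokines, 1 fell and none rose in Mdr2-KO, and 1 rose and 1 fell in Mdr2-KO/IL6-KO against wild type. Ppbp, the platelet chemokine precursor, fell by 1.33 on the log2 scale in Mdr2-KO (adjusted p = 0.0119) and by 1.71 in Mdr2-KO/IL6-KO (adjusted p = 0.00254). For Ppbp, Mdr2-KO array 3 read 8.55, inside the wild-type range of 8.47 to 8.73, while the other Mdr2-KO arrays read 6.78 to 7.09. Pf4, the other main platelet chemokine, rose by 1.03 in Mdr2-KO/IL6-KO (adjusted p = 0.0117), lost on leaving out wild-type array 1 (adjusted p = 0.055). Of 6 further chemokine receptors none passed in any comparison by limma. Of 6 atypical or scavenging receptors, Ackr4 fell in both knockouts and Cmklr1 rose in Mdr2-KO/IL6-KO, by 0.38 (adjusted p = 0.0287), and each of these calls was lost on leaving out at least 1 single array.

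Of 12 genes of receptor signalling, 1 rose and 2 fell in Mdr2-KO against wild type, while in Mdr2-KO/IL6-KO 2 rose and 1 fell against wild type, and also 2 rose and 1 fell against Mdr2-KO. Gnai3, a G protein alpha subunit, rose by 0.38 in Mdr2-KO against wild type (adjusted p = 0.0044) and fell by 0.35 on the log2 scale in Mdr2-KO/IL6-KO against Mdr2-KO (adjusted p = 0.00653). Arrb1, a beta-arrestin that ends receptor signalling, rose by 0.42 in Mdr2-KO/IL6-KO against wild type (adjusted p = 0.00466) and by 0.32 against Mdr2-KO (adjusted p = 0.0166), the call against Mdr2-KO being lost on leaving out both Mdr2-KO array 3 and array 2 of Mdr2-KO/IL6-KO (0.25, adjusted p = 0.0711). Rac2, a GTPase of white blood cells, fell by 0.56 on the log2 scale in Mdr2-KO against wild type (adjusted p = 0.00848). Of 12 upstream cytokines and regulators, 1 fell in Mdr2-KO against wild type, while in Mdr2-KO/IL6-KO 2 rose against wild type and 1 rose against Mdr2-KO. The 2 that rose against wild type were Tnfaip3, an inhibitor of NF-kB, at 0.58 (adjusted p = 0.0134), and the AP-1 subunit Jun, at 0.89 (adjusted p = 0.0246). Tnfaip3 lost its call on leaving out wild-type array 1 (adjusted p = 0.0883), and Jun on leaving out array 1 (0.112) or 3 (0.0886). Of 6 enzymes that cut chemokines, Mmp12 and Mmp2 rose in both knockouts, and the call of Mmp2 in Mdr2-KO was lost on leaving out several single arrays, the highest adjusted p being 0.163 without wild-type array 3.

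**Figure D5:**
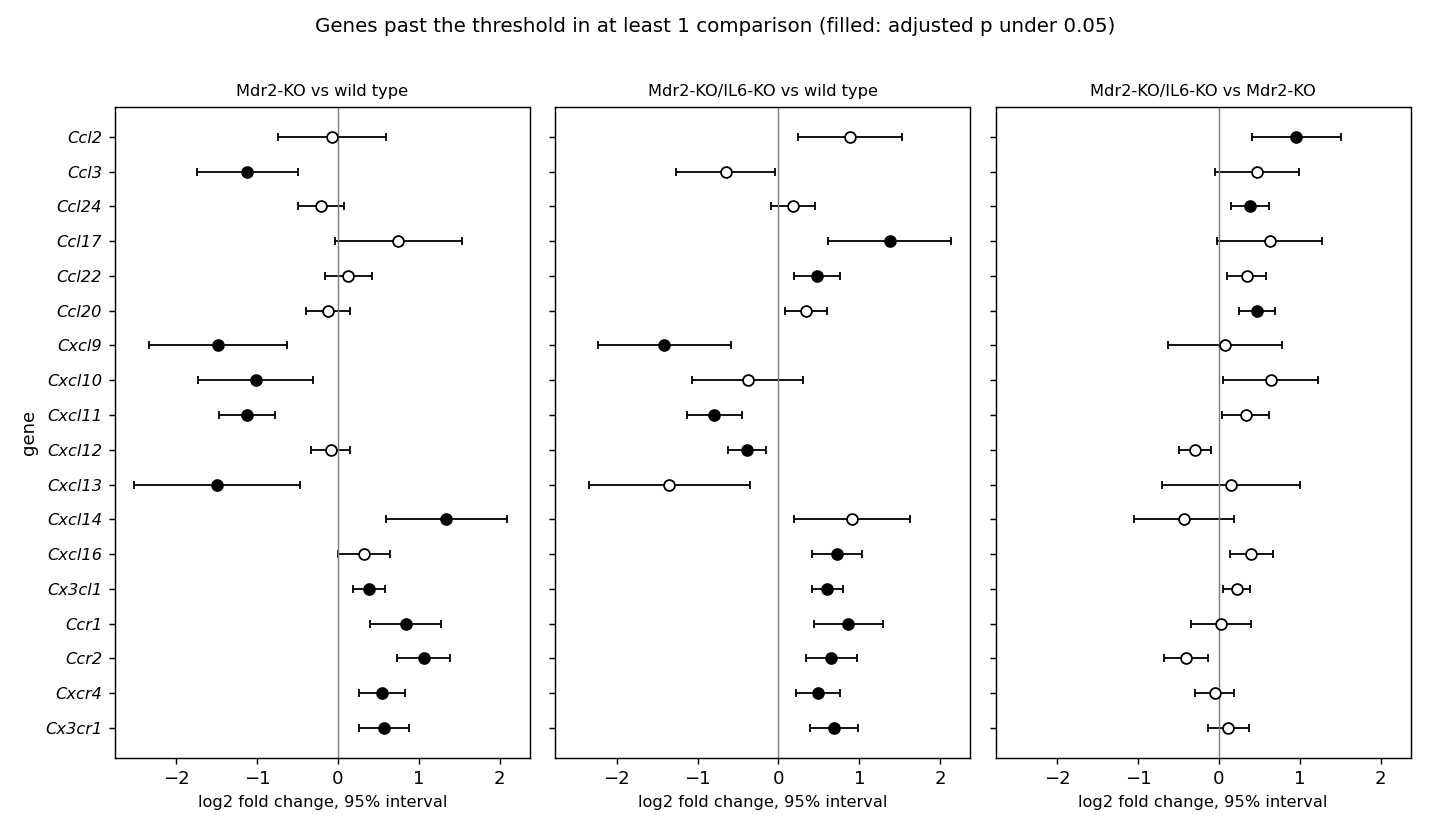
Log2 fold change with its 95% interval (horizontal axis) of the 18 genes that passed in at least 1 comparison, in Mdr2-KO against wild type, in Mdr2-KO/IL6-KO against wild type, then in Mdr2-KO/IL6-KO against Mdr2-KO. Filled points have an adjusted p under 0.05, and in the last panel these are Ccl2, Ccl24 and Ccl20.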

How the data were processed

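The deposited table holds 1 log2 value per probe and array, which the authors normalized before deposit. The submitters' processing notes name Partek and RMA, without versions, and the authors' normalization was kept. Of 35557 probes, 21789 name 1 gene in the array annotation, 1621 name several and 12147 none. Each gene was read from its single-gene probe of highest mean, which gave 19938 genes with no filter on dim genes.

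Group means were fitted in limma 3.58.1 (R 4.3.3) over all 14 arrays, with variances moderated by empirical Bayes, and the 2-sided p-values were adjusted over all genes by the Benjamini-Hochberg method. Tables were handled in Python 3.11.15 and plots made in matplotlib 3.10.9. The procedure was tested on simulated data. The 38 genes were given by name, and they and the pathway and marker lists were chosen with earlier results of these data known. Genes with an adjusted p under 0.05 in any comparison are described in full and the others by mean, range or count. The members of the pathway lists that the text names were chosen, after their values were seen, from those that passed. The 5, 6 and 3 arrays per group, and the height of a signal above the background, set the precision. The alternatives were quantile normalization, median centring, the dimmest genes left out (13292 kept), the mean of a gene's probes, trend and robust moderation, array weights, only the 2 groups compared, each array left out, and 2 pairs of arrays left out together. Probes that name several genes or none were left out of the tests, since their signal cannot be given to 1 gene. Promoters and gene order came from RefSeq on GRCm38.p6.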

Additional observations from a re-analysis of the deposited data

Results flagged for a closer look

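In 7 of 76 groups of arrays, 38 genes in each of the Mdr2-KO and Mdr2-KO/IL6-KO groups, 1 array stood apart from the rest by Dixon's test, where chance gives about 1 in 20, or 3.8. Mdr2-KO array 3 read 9.84 for Cxcl1, with 7.91 to 8.18 in the other arrays of its group, and 9.62 for Cxcl14, with 7.60 to 7.81. The same array read 4.90 for Ccr3, with 4.62 to 4.69 in the others, all of them under the background. In Mdr2-KO/IL6-KO array 2, Cxcl14 read 8.34 beside 7.38 to 7.70. These 2 arrays also had the highest neutrophil markers, a mean log2 signal of 8.90 and 7.87, and the part of these cells was not tested. Mdr2-KO/IL6-KO array 5 read 8.39 for Ccr3, with 4.76 to 5.03 in the others, and 5.92 for Ccl4, with 5.67 to 5.76. Cxcl2 read 6.51 in Mdr2-KO/IL6-KO array 1 and 4.89 to 5.46 in the others. The Ccr3 and Cxcl2 means were under the background.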

How the results depend on the processing

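No call changed sign under any setting tried. For the genes that moved, over every comparison and alternative, a call was lost 67 times and gained 29 times. The number of the 38 genes that passed was 8 to 13 for Mdr2-KO and 5 to 13 for Mdr2-KO/IL6-KO, each against wild type, and 1 to 5 between the knockouts when each array was left out in turn (11, 11 and 3 with all arrays). In the same order, the share of all genes that passed ran from 10.7% to 22.6%, 8.2% to 12.8% and 3.78% to 10.9%. Over the other settings the counts were 9 to 12, 10 to 13 and 0 to 6. The share of all genes tested that passed was 14.5% to 27.9%, 10.1% to 19.8% and 3.45% to 14.0% there. Between the knockouts the count was 6 with only the 13292 brightest genes tested, where 14.0% of these passed. It was 1 on leaving out both wild-type array 2 and array 3 of Mdr2-KO (4.87% of all genes). By limma it was 0 on leaving out both Mdr2-KO array 3 and array 2 of Mdr2-KO/IL6-KO, where 3.45% of all genes passed. There 11 of the 38 had an unadjusted p under 0.05. The share of all genes at that unadjusted threshold was not counted, so the 11 cannot be set against it. The cause was not tested. Of the calls, 4 of 11, 5 of 11 and 0 of 3 passed under every setting tried. These were Ccr2, Cx3cr1, Cxcl11 and Cxcl14 in Mdr2-KO, and Ccr1, Cx3cl1, Cx3cr1, Cxcl11 and Cxcl16 in Mdr2-KO/IL6-KO, both against wild type. Ccr1, under the background, could not be tried with the dimmest genes left out. On leaving out both wild-type array 2 and Mdr2-KO array 3, the log2 difference between Mdr2-KO and wild type was -0.61 for Ccl3 (adjusted p = 0.106) and -0.57 for Cxcl10 (adjusted p = 0.221), and Cxcl9 (0.0936) and Cxcl13 (0.0981) also no longer passed there. The difference of Cxcl13 between Mdr2-KO/IL6-KO and Mdr2-KO, which had not passed, was 0.15 with all arrays and turned sign to -0.27 without Mdr2-KO/IL6-KO array 5. No paired analysis was possible because the labels give the groups no shared replicate numbers. With 3 wild-type arrays and 9 of 38 genes under the background, a difference that did not pass is not shown to be absent.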

Other observations

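Further chemokines were read only from probes that name several genes and were therefore not tested. The 4 probes that name the copies of Ccl21, a CCR7 ligand of lymphatic vessels, carried identical values and averaged 6.97 in Mdr2-KO, 7.11 in Mdr2-KO/IL6-KO and 6.69 in wild type. Over single arrays they ran from 6.16 to 8.07 in Mdr2-KO, 6.15 to 8.26 in Mdr2-KO/IL6-KO and 6.42 to 7.03 in wild type, so the groups overlapped. The 3 probes that name Ccl27a had means of 8.58 to 8.96 in Mdr2-KO, 8.36 to 8.80 in Mdr2-KO/IL6-KO and 8.74 to 9.19 in wild type. Of the 38 genes only Ccl19 and Ccl25 had more than 1 single-gene probe. The 5 probes of Ccl19 had means of 7.62 to 7.75 in Mdr2-KO, 7.71 to 7.86 in Mdr2-KO/IL6-KO and 7.55 to 7.59 in wild type. The other Ccl25 probe had means of 6.14 in Mdr2-KO, 6.08 in Mdr2-KO/IL6-KO and 6.06 in wild type, below those of the probe used, at 6.95, 6.92 and 6.94.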
